A study of Rattus norvegicus with 38 samples.

Results

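The 10 genes described here, Mro, Krt79, Kcnmb4, Chodl, Plet1, Slc47a1, Slc7a7, Mab21l3, Pik3c2b and Paqr4, were picked by name because their smoke response differed between 2 rat lines. They were taken from 14217 genes with a probe set carrying a single gene symbol on an Affymetrix Rat Genome 230 2.0 array. The measure behind the choice was an interaction, the smoke minus sham difference in LCR rats minus that in HCR rats. Each gene was read from its brightest probe set, on the scale log2(intensity + 16). The study measured lung RNA of 38 rats, 1 array per animal, from lines of N:NIH rats bred for low (LCR) or high (HCR) intrinsic exercise capacity. Strain, female sex and an age of 34 weeks are tagged for 37 of the 38. The array LCR sham 0445 lacks these tags and was placed by its title. The rats were given cigarette smoke, or room air as sham exposure, for 12 weeks, with 5 exposure days in each. The groups held 12 LCR smoke, 7 LCR sham, 12 HCR smoke and 7 HCR sham animals. All 4 groups were whole lung, so fewer cells of a type and less RNA per cell cannot be told apart.

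The genes belong to no single pathway. Slc7a7 encodes y+LAT1, which pairs with the heavy chain Slc3a2 and exports cationic amino acids, and its human counterpart is mutated in lysinuric protein intolerance. Slc47a1 encodes MATE1, a proton-coupled exporter of organic cations. Kcnmb4 encodes the beta 4 accessory subunit of the large-conductance, calcium-activated potassium (BK) channel. Plet1 encodes a glycosylphosphatidylinositol-anchored surface protein first described in mouse placenta, Chodl the membrane lectin chondrolectin, and Paqr4 a member of the progestin and adipoQ receptor family. Krt79 is a type II keratin, Pik3c2b a class II phosphoinositide 3-kinase, Mab21l3 a mab-21-like gene, and Mro (maestro) a gene known from the developing male gonad of the mouse. On the GRCr8 assembly the RefSeq table placed the genes on 8 chromosomes, with Kcnmb4 and Krt79 both on chromosome 7 and Paqr4 and Slc47a1 both on chromosome 10. Kcnmb4 (chr7:53952150-54005101) and Krt79 (chr7:134935395-134946447) lay far apart, as did Paqr4 (chr10:13263559-13267237) and Slc47a1 (chr10:46533580-46590128).

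A RefSeq promoter was found for 7 of the 10 genes, as the 250 bases before a listed transcript start on GRCr8. None was listed for Mro, Pik3c2b or Slc47a1, the gene of the 10 most correlated with Slc7a7. Promoters of Plet1 and Slc7a7 are printed because these genes moved together between animals, and that of Mab21l3 because its LCR smoke and HCR smoke arrays did not overlap. In each, 1 chosen motif is marked, and its part in the values of these genes was not tested. Sequences run 5′ to 3′ on the gene's own strand. Capitals mark TGACNNNGC, the core of the antioxidant response element, in Plet1 (on the opposite strand) and Slc7a7, and the CCAAT box, on the opposite strand, in Mab21l3. The positions are chr8:59738389-59738638 (plus strand) for Plet1, chr15:31835684-31835933 (minus strand, before a start inside the annotated gene) for Slc7a7, and chr2:191960205-191960454 (minus strand) for Mab21l3.
Plet1: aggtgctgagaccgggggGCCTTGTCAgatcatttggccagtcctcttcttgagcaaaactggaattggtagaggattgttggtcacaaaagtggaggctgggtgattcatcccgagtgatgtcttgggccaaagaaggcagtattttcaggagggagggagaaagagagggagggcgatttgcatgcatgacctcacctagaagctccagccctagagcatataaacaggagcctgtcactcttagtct
Slc7a7: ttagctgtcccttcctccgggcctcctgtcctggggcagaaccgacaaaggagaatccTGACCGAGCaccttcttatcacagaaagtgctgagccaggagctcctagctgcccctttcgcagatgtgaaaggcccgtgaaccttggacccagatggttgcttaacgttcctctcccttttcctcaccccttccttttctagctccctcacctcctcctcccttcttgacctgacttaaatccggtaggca
Mab21l3: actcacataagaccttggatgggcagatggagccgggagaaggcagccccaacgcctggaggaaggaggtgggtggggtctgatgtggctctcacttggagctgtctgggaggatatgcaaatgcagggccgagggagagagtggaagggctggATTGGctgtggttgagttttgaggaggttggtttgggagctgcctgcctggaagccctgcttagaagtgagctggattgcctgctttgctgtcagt
Motifs were searched on both strands. TGACNNNGC was present in 10.1% of 33469 RefSeq promoters of the same length, and CCAAT in 34.0%. TGACNNNGC was also found upstream of 1 of the 3 starts listed for Krt79, and CCAAT also upstream of Plet1 and of 2 of the Krt79 starts. The Kcnmb4 promoter stood out in base composition, with 84.4% G and C and 44 CpG dinucleotides, against medians of 51.2% and 5 over all promoters, and held none of the motifs searched. Paqr4 had 64.0% G and C, 21 CpG dinucleotides and CCAAT at 2 places. GCGTG, held by 25.9% of all promoters, occurred upstream of 2 of the 3 starts listed for Krt79. TGANTCA, held by 6.34%, occurred once upstream of Plet1, at a site that matches this motif on both strands. Neither GAGGAAGT (2.04% of all promoters) nor the E-box CACGTG (5.59%) was found in the promoters of these 7 genes.

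Array quality moved with exposure. The median log2 value was 5.976 ± 0.030 on LCR smoke and 6.034 ± 0.019 on LCR sham arrays, and 5.965 ± 0.024 on HCR smoke and 6.009 ± 0.027 on HCR sham arrays (SD, n = 12 and 7 in each line). The interquartile range was 2.92 ± 0.08 on LCR smoke, 3.002 ± 0.022 on LCR sham, 2.86 ± 0.06 on HCR smoke and 2.99 ± 0.04 on HCR sham arrays. The difference between 3′ and 5′ control probes of Actb is a sign of RNA integrity. It was 0.65 ± 0.04 log2 on LCR smoke and 0.84 ± 0.14 on LCR sham arrays (SD). Its median was 0.66 on HCR smoke and 0.72 on HCR sham arrays, and it reached 2.06 on HCR sham 0432. An earlier analysis of these data found 6 arrays high in muscle or fat genes, namely LCR sham 0442, HCR smoke 0410, 0414, 0415 and 0417, and HCR sham 0433. The number of arrays limits the precision of all values.

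The interaction was positive for 9 genes and negative for Pik3c2b. It chose the genes, so it is given as a description. Over all genes, limma called 1.87% in either direction at an adjusted p of 0.05, 1.52% with a larger smoke difference in LCR and 0.352% with a smaller one. By p, the 10 genes ranked between 1 (Pik3c2b) and 240 (Krt79), and by size between 36 (Mro) and 246 (Paqr4). In each line's own smoke difference, 9 genes were higher under smoke in LCR rats and 5 in HCR rats. Under smoke 9 of the 10 were higher in LCR than in HCR rats, and under sham 8 of the 10 were lower in LCR than in HCR rats. For 7 genes the line difference was larger under sham than under smoke. These counts are descriptions too, because each of these differences is part of the interaction. For these group sizes the line difference is correlated with the interaction at -0.79 under sham and 0.61 under smoke. The choice of genes alone thus favours larger differences under sham.

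**Figure D1:**
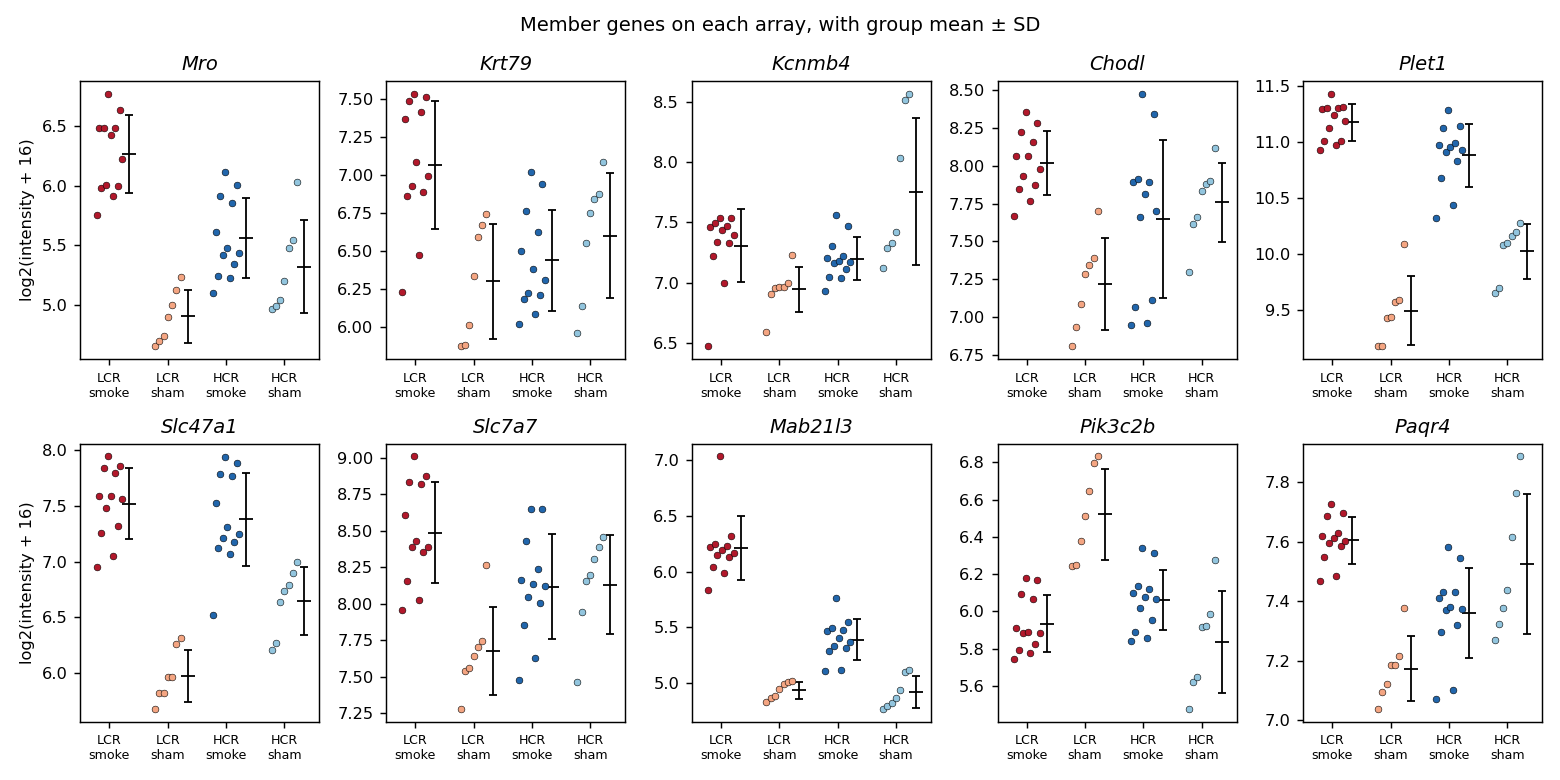
Each panel plots 1 gene as log2(intensity + 16), with a point per array and the group mean ± SD as a bar, for 12 LCR smoke, 7 LCR sham, 12 HCR smoke and 7 HCR sham arrays. Mab21l3 showed all LCR smoke arrays above all HCR smoke arrays, and Kcnmb4 showed 3 HCR sham arrays above all others.

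Both solute carriers were high in smoke-exposed LCR lungs and low in LCR sham lungs. Slc7a7 had intensities of 233 to 499.7 (median 325) in LCR smoke and 139 to 291 (median 184) in LCR sham lungs, and of 162 to 386 (median 264) in HCR smoke and 161 to 336 (median 278) in HCR sham lungs. Its smoke difference was 0.81 ± 0.16 log2 (SE) in LCR and -0.01 ± 0.16 in HCR rats, an interaction of 0.83 ± 0.22. Of the smoke arrays, 9 of 12 in LCR and 2 of 12 in HCR lay above all sham arrays of their line. Slc47a1 had intensities of 108 to 230.0 (median 175) in LCR smoke and 35.2 to 63.4 (median 46.3) in LCR sham lungs, and of 76.1 to 229 (median 139) in HCR smoke and 58.0 to 112 (median 90.4) in HCR sham lungs. It was higher under smoke in both lines, by 1.54 ± 0.16 log2 in LCR and 0.73 ± 0.16 in HCR rats, with an interaction of 0.81 ± 0.22. All 12 LCR smoke arrays lay above all LCR sham arrays, and 11 of 12 HCR smoke arrays lay above all HCR sham arrays. The line difference, LCR minus HCR, was 0.14 ± 0.13 under smoke and -0.67 ± 0.18 under sham for Slc47a1, and 0.37 ± 0.14 under smoke and -0.45 ± 0.18 under sham for Slc7a7.

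Kcnmb4 was higher under smoke in LCR rats and lower in HCR rats. Intensities were 72.7 to 170.1 (median 155) in LCR smoke and 80.3 to 134 (median 109) in LCR sham lungs, and 106 to 173 (median 129) in HCR smoke and 123 to 364 (median 155) in HCR sham lungs. The smoke difference was 0.36 ± 0.16 log2 in LCR and -0.55 ± 0.16 in HCR rats, an interaction of 0.92 ± 0.22. The HCR sham group was split. Arrays 0435, 0434 and 0436 had intensities of 364, 351 and 246, and the other 4 had 123 to 155. Those same arrays held the highest Paqr4 (180.3, 221 and 201) and Mro (30.6, 49.4 and 28.7) of the HCR sham group. The other 4 HCR sham arrays lay within the HCR smoke range of 106 to 173. The Kcnmb4 interaction stayed between 0.78 and 1.02 when each array was left out in turn. That cannot show how far it rests on HCR sham 0434, 0435 and 0436 together, and a fit without all of them was not run.

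Plet1 stood apart between smoke and sham lungs in both lines. Its intensities were 1933 to 2749 (median 2364) in LCR smoke and 563 to 1074 (median 677) in LCR sham lungs, and 1265 to 2481 (median 1954) in HCR smoke and 789 to 1223 (median 1085) in HCR sham lungs. No smoke array overlapped the sham arrays of its line. The smoke difference was 1.68 ± 0.12 log2 in LCR and 0.86 ± 0.12 in HCR rats, an interaction of 0.82 ± 0.16. The other 2 of the 3 Plet1 probe sets gave interactions of 0.98 ± 0.25 and 1.04 ± 0.24.

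Chodl had intensities of 187 to 311 (median 244) in LCR smoke and 95.8 to 192 (median 139) in LCR sham lungs, and of 107 to 341 (median 201) in HCR smoke and 141 to 262 (median 212) in HCR sham lungs. The HCR smoke group was the widest, and 4 of its 12 arrays lay below the lowest HCR sham array while 2 lay above the highest. The smoke difference was 0.80 ± 0.17 log2 in LCR and -0.11 ± 0.17 in HCR rats, an interaction of 0.91 ± 0.24. Paqr4 had intensities of 161 to 196 (median 179) in LCR smoke and 115 to 150.1 (median 129) in LCR sham lungs, and of 118 to 176 (median 150.3) in HCR smoke and 138 to 221 (median 157) in HCR sham lungs. Its LCR groups did not overlap, and its HCR groups did. The difference was 0.43 ± 0.07 log2 in LCR and -0.17 ± 0.07 in HCR rats, which made the smallest interaction of the 10, 0.60 ± 0.10.

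The keratin Krt79 had intensities of 59.1 to 169.6 (median 115) in LCR smoke and 42.5 to 90.9 (median 64.8) in LCR sham lungs, and of 48.8 to 114 (median 65.1) in HCR smoke and 46.1 to 119.6 (median 91.6) in HCR sham lungs. All groups overlapped, and 10 of 12 LCR smoke arrays lay above the highest LCR sham array. The smoke difference was 0.76 ± 0.18 log2 in LCR and -0.16 ± 0.18 in HCR rats, and the interaction 0.93 ± 0.25. Mro had intensities of 38.2 to 93.5 (median 64.5) in LCR smoke and 9.15 to 21.6 (median 13.8) in LCR sham lungs, and of 18.2 to 53.5 (median 27.9) in HCR smoke and 15.3 to 49.4 (median 20.7) in HCR sham lungs. Its LCR groups lay fully apart, with a difference of 1.36 ± 0.15 log2 against 0.24 ± 0.15 in HCR rats and the largest interaction of the 10, 1.12 ± 0.21. Because the pseudocount of 16 is close to the sham intensities of Mro and Mab21l3, the log2 differences understate the change of both genes. With a pseudocount of 1 the Mro interaction was 1.68.

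Mab21l3 was the gene for which smoke separated the lines. Intensities were 40.9 to 115 (median 56.5) in LCR smoke and 12.4 to 16.5 (median 14.8) in LCR sham lungs, and 18.4 to 38.4 (median 25.9) in HCR smoke and 11.2 to 18.8 (median 13.2) in HCR sham lungs. Under smoke the line difference was 0.82 ± 0.08 log2 and every LCR array lay above every HCR array, while under sham it was 0.02 ± 0.11 and the groups overlapped. Smoke differences were 1.28 ± 0.10 in LCR and 0.47 ± 0.10 in HCR rats, an interaction of 0.80 ± 0.14. Pik3c2b was the gene that ran the other way. Intensities were 37.6 to 56.6 (median 43.1) in LCR smoke and 59.9 to 97.96 (median 75.1) in LCR sham lungs, and 41.4 to 65.2 (median 51.2) in HCR smoke and 28.5 to 61.6 (median 44.5) in HCR sham lungs. Of the 4 groups, LCR sham had the highest median. The smoke difference was -0.59 ± 0.09 log2 in LCR and 0.22 ± 0.09 in HCR rats, an interaction of -0.81 ± 0.13. A second probe set of Pik3c2b had a mean intensity of 4.29, near the table's minimum of 2.09, and an interaction of -0.01 ± 0.03.

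**Figure D2:**
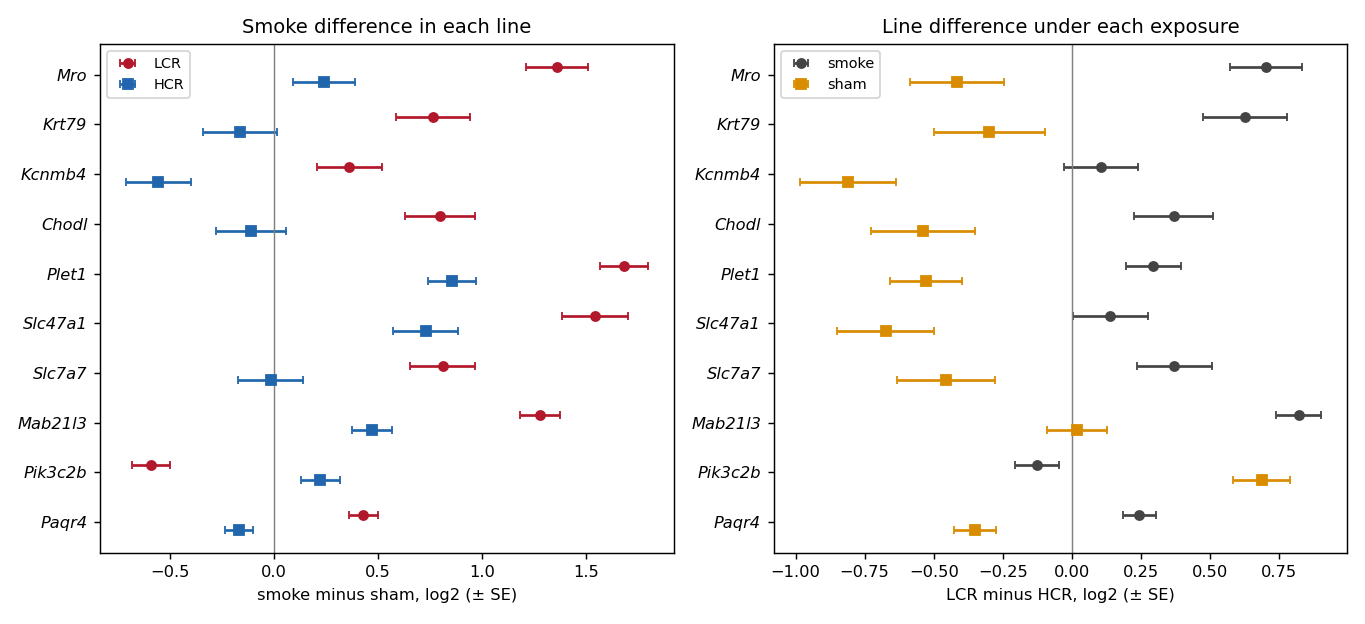
The left panel plots the smoke minus sham difference (log2, ± SE) of each gene in LCR and HCR rats, and the right panel the LCR minus HCR difference under smoke and under sham. Pik3c2b was the gene lower under smoke in LCR, and 8 of the 10 genes lay left of 0 in the sham comparison of the lines. All of these differences are parts of the interaction that chose the genes.

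Counts of separated groups can be read against all genes. All LCR smoke arrays lay above all LCR sham arrays for Mro, Plet1, Slc47a1, Mab21l3 and Paqr4, which held for 5.90% of all genes, and below them for Pik3c2b, which held for 8.55%. In HCR rats Plet1 was the single gene of the 10 with all smoke arrays above all sham arrays, against 1.58% of all genes. All LCR smoke arrays lay above all HCR smoke arrays for Mab21l3, as for 0.0492% of all genes. These separations use values that entered the choice of genes and are given as a description.

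With equal group sizes in both lines, the mean of the smoke differences in the 2 lines is orthogonal to the interaction, although both share the same estimate of the spread. The genes were picked by name with earlier results of these data known. Whether their smoke response played a part in that pick is not known, so the counts below are not independent support. By limma with Benjamini-Hochberg adjustment over all genes, 8 of the 10 genes rose with smoke on average and 1 fell, where 27.4% of all genes rose and 35.8% fell. Their median difference was 0.37 log2, against -0.02 over all genes. Plet1 rose by 1.27 ± 0.08 log2 (SE; adjusted p = 8.15e-15), Slc47a1 by 1.14 ± 0.11 (adjusted p = 9.13e-11), Mab21l3 by 0.88 ± 0.07 (adjusted p = 5.16e-13) and Mro by 0.80 ± 0.11 (adjusted p = 6.12e-08). Smaller rises were those of Slc7a7 (0.40 ± 0.11, adjusted p = 0.00234), Chodl (0.34 ± 0.12, adjusted p = 0.0116), Krt79 (0.30 ± 0.13, adjusted p = 0.0365) and Paqr4 (0.13 ± 0.05, adjusted p = 0.0165). In HCR rats alone these genes did not rise, at -0.01, -0.11, -0.16 and -0.17, so their average rise is that of LCR rats. Pik3c2b fell by 0.18 on the log2 scale (SE 0.07, adjusted p = 0.0154), although in HCR rats alone it was higher under smoke by 0.22. Kcnmb4 averaged -0.10 ± 0.11 (adjusted p = 0.459). The calls of Krt79, Chodl, Pik3c2b and Paqr4 were lost under at least 1 other setting, with adjusted p up to 0.227 for Krt79, 0.342 for Chodl, 0.638 for Pik3c2b and 0.0624 for Paqr4. Krt79 also lost its call without any 1 of 10 arrays.

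The mean line difference over both exposures with equal weight is not independent of the choice, because its estimate is correlated with that of the interaction at -0.26 for these group sizes. It is given as a description. LCR minus HCR was 0.42 ± 0.07 log2 for Mab21l3, 0.28 ± 0.07 for Pik3c2b, -0.35 ± 0.11 for Kcnmb4 and -0.27 ± 0.11 for Slc47a1. Weighted by group size, the line difference is uncorrelated with the interaction, and this measure was added after the data were seen. By it, Mab21l3 was the single gene of the 10 that passed, higher in LCR than in HCR rats by 0.53 ± 0.07 log2 (limma, adjusted p = 1.46e-06), where 3.79% of all genes were higher and 2.55% lower. Mro was at 0.29 ± 0.10 (adjusted p = 0.0821), Pik3c2b at 0.17 ± 0.06 (adjusted p = 0.0901) and Kcnmb4 at -0.23 ± 0.11 (adjusted p = 0.190), none of which passed. Mro passed without HCR sham 0434 (adjusted p = 0.0325) and Pik3c2b without HCR sham 0432 (adjusted p = 0.0298).

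Animals within a group also varied, and these deviations from the group mean carry no part of the interaction. Of 45 pairs of the 10 genes, 15 were correlated over the 38 arrays by Pearson's r, and 13 by both r and Spearman's rho (within-group permutation test with 100000 resamples, adjusted over 55 correlations). The share of pairs of other genes that would pass was not examined, so these counts cannot be read as particular to the 10 genes. The strongest was Slc47a1 with Slc7a7, at r = 0.82 and rho = 0.83 (permutation, adjusted p = 0.000183 and 0.000275, raw p = 1e-05 for both, the smallest the resamples can give). Without the 2 arrays farthest from the median r was 0.78, and within groups it lay between 0.72 (LCR smoke) and 0.91 (HCR smoke). Plet1 joined both, at r = 0.66 and rho = 0.68 with Slc7a7 (permutation p = 7e-05 and 3e-05, adjusted p = 0.00077 and 0.00033) and r = 0.64 and rho = 0.62 with Slc47a1 (permutation p = 2e-05 and 9e-05, adjusted p = 0.000275 and 0.000825). Without the 2 farthest arrays these were 0.56 in each case.

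Mro was correlated with all 3 of these genes by both measures, at r = 0.48 with Slc7a7, 0.45 with Slc47a1 and 0.39 with Plet1, and rho = 0.46, 0.45 and 0.43 (permutation p from 0.00413 to 0.0177 by r and from 0.00557 to 0.0101 by rho, adjusted p from 0.0162 to 0.0488 and from 0.0251 to 0.0328). Without the 2 farthest arrays r was 0.46, 0.40 and 0.34. Paqr4 was correlated with Slc7a7 by r (0.41, permutation p = 0.0122, adjusted p = 0.0353) and not by rho (0.37, permutation p = 0.0277, adjusted p = 0.0803), and 0.33 without the 2 farthest arrays.

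Mro was further correlated with Kcnmb4 and Paqr4, as these were with each other. Kcnmb4 and Paqr4 gave r = 0.57 and rho = 0.54 (permutation p = 0.00344 and 0.00331, adjusted p = 0.016 and 0.0165), and 0.58 without the 2 farthest arrays. Within groups, r was 0.63 in LCR smoke, 0.30 in LCR sham, -0.02 in HCR smoke and 0.88 in HCR sham lungs. Mro correlated with Paqr4 at r = 0.52 and rho = 0.50 (permutation p = 0.00202 and 0.00299, adjusted p = 0.0123 and 0.0164), and with Kcnmb4 at r = 0.50 and rho = 0.46 (permutation p = 0.00322 and 0.00685, adjusted p = 0.016 and 0.0251). Without the 2 farthest arrays r was 0.44 with Paqr4 and 0.43 with Kcnmb4. In HCR sham lungs alone, r was 0.92 with Paqr4 and 0.91 with Kcnmb4, and there the values rest on arrays 0434, 0435 and 0436. Pik3c2b and Chodl passed in no pair by r, with r between -0.22 and 0.39.

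**Figure D3:**
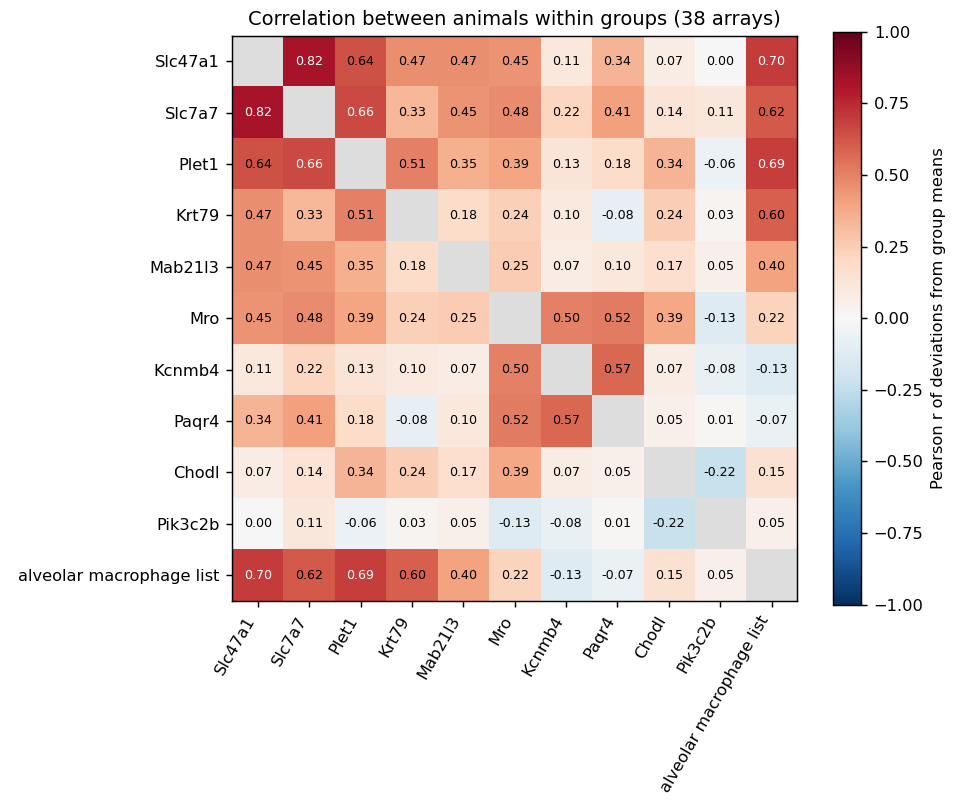
The grid gives Pearson's r between genes, and between each gene and the mean of an alveolar macrophage gene list, from deviations from the group means over 38 arrays, with red for positive and blue for negative. Slc47a1, Slc7a7 and Plet1 gave the highest values between genes, from 0.64 to 0.82.

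Genes outside the 10 whose deviations were most like those of a member were sought among 9634 genes with a mean of at least 6 on the log2 scale. For Slc47a1 they were Pip5k1b (r = 0.89) and Lgmn (0.88), which encodes the lysosomal protease legumain. For Plet1 they were Gpnmb (0.87), a glycoprotein abundant in macrophages, and Gpx1 (0.86), a glutathione peroxidase. Slc7a7 was closest to Capg and Ctsz, at 0.78 each, the second of which encodes cathepsin Z. Krt79 was closest to Clec10a, a lectin of macrophages and dendritic cells, and Spic, a macrophage transcription factor, at 0.71 each. Mro was closest to Il1r2, the decoy receptor for interleukin 1 (0.73), and to Rad18 (0.72), and Mab21l3 to Gdpd2 (0.69) and Qsox1 (0.65). Paqr4 was closest to Ahcy (0.75) and Gtf3a (0.73), Pik3c2b to Retreg2 (0.71) and Hip1r (0.67), Kcnmb4 to Vamp8 (0.69) and Tatdn2 (0.63), and Chodl to LOC100911627 (0.58) and Lrif1 (0.58). These maxima over many genes describe the same 38 arrays and are given with no p. Of these 20 genes, 15 passed the average smoke difference by limma, where 63.1% of all genes did in either direction, and 2 the interaction, where 1.87% did. Vamp8 had an interaction of 0.24 ± 0.06 log2 (adjusted p = 0.0271) and Gtf3a of 0.54 ± 0.13 (adjusted p = 0.0234). Smoke minus sham was 0.09 in LCR and -0.15 in HCR rats for Vamp8, and -0.03 and -0.58 for Gtf3a. Both calls were lost without HCR sham 0434, and Vamp8 also without HCR sham 0435, LCR sham 0445 or LCR sham 0442. Without the 6 arrays high in muscle or fat genes neither passed (limma, adjusted p = 0.0514 for Vamp8 and 0.0559 for Gtf3a), with interactions of 0.24 and 0.55 log2.

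Markers of alveolar macrophages, the phagocytes of the airspaces, were measured for 13 of 17 listed genes, and Marco, Atp6v0d2, Msr1 and Siglec1 were not among the genes named here. Several of the 13 (Fabp4, Cidec, Lpl, Pparg and Plin2) are also fat-cell genes, and Car4 is also an endothelial gene. Against 27.4% of all genes, 9 of the 13 rose with smoke on average, and Car4 fell, where 35.8% of all genes fell. The median was 0.41 log2, against -0.02 over all genes. Ctsk rose by 1.51 ± 0.14, Cd68 by 1.45 ± 0.11 and Fabp5 by 1.01 ± 0.06 (limma, adjusted p = 2.26e-11, 6.35e-13 and 1.34e-15). The interaction passed for 2 of the 13, the mannose receptor Mrc1 at 0.62 ± 0.16 (adjusted p = 0.0361) and the transcription factor Pparg at 0.48 ± 0.13 (adjusted p = 0.0426), where 1.52% of all genes passed in this direction. The list's interaction median was 0.46, against 0.02 over all genes. An unadjusted interaction p under 0.05 (limma) was found for 8 of the 13, against 18.7% of all genes. Mrc1 lost its adjusted interaction call without any 1 of 13 arrays and Pparg without any 1 of 22. Both lost it without the 6 arrays high in muscle or fat genes (adjusted p = 0.131 for Mrc1 and 0.170 for Pparg) and with the interquartile range as a covariate (0.0626 and 0.0719). Without the 6 arrays the interaction was 0.57 for Mrc1 and 0.41 for Pparg.

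The mean of the list, centred on all arrays, ran from -0.09 to 0.48 log2 in LCR smoke and from -0.68 to -0.32 in LCR sham lungs. It ran from -0.30 to 0.41 in HCR smoke and from -0.46 to 0.37 in HCR sham lungs, and without HCR sham 0433, which was also high in muscle and fat genes, the highest HCR sham array was at -0.14. LCR groups did not overlap, while HCR groups did. Deviations of this mean tracked Slc47a1 (r = 0.70, rho = 0.73), Plet1 (0.69, 0.66), Slc7a7 (0.62, 0.63) and Krt79 (0.60, 0.62), with adjusted p between 0.000183 and 0.00134 by within-group permutation and raw p between 1e-05 and 0.00017. Without the 2 farthest arrays r was 0.65, 0.67, 0.50 and 0.50. For Krt79, r was 0.87 in LCR smoke and 0.10 in HCR smoke lungs. Mab21l3 passed by r (0.40, permutation p = 0.0121, adjusted p = 0.0353) and not by rho (0.39, permutation p = 0.0196, adjusted p = 0.0598). The others did not pass, at r = 0.22 for Mro, 0.15 for Chodl, 0.05 for Pik3c2b, -0.07 for Paqr4 and -0.13 for Kcnmb4 (permutation, adjusted p from 0.421 to 0.846). The share of all genes whose deviations track the list mean was not examined, so the tracking cannot be read as particular to these genes. The part of macrophage number in these responses was not tested.

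**Figure D4:**
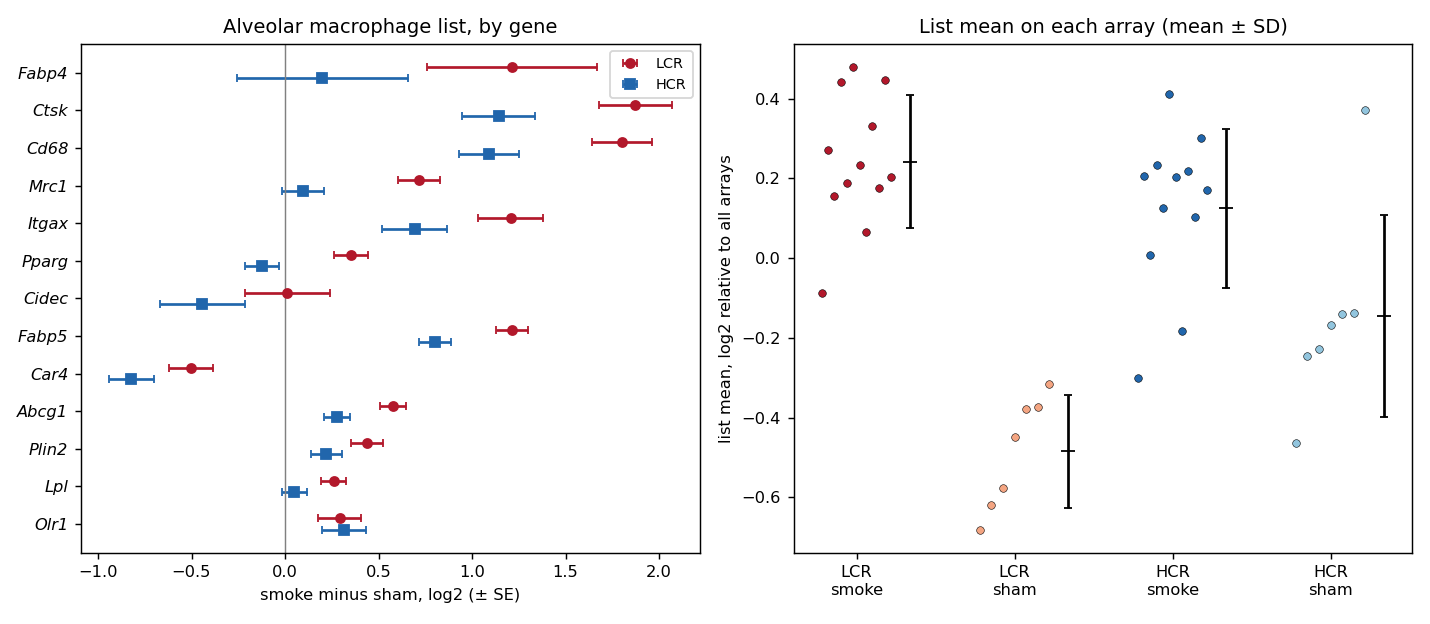
The left panel plots smoke minus sham (log2, ± SE) in LCR and HCR rats for the 13 measured alveolar macrophage genes, and the right panel the mean of the list on each array, with group mean ± SD. LCR sham arrays ran from -0.68 to -0.32, the lowest HCR sham array lay at -0.46 and the highest at 0.37.

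Other cell types also moved with the groups. On the average smoke difference 27.4% of all genes rose and 35.8% fell, and the counts below can be read against these shares. Monocyte and interstitial macrophage markers rose for 7 of 11 measured genes and fell for 2 on the average smoke difference, led by the complement genes C1qb (1.27 ± 0.08 log2), C1qc (1.01 ± 0.08) and C1qa (0.997 ± 0.082). Neutrophil markers rose for 4 of 7, among them S100a9 (2.57 ± 0.20), and the neutrophil list includes Il1r2, the gene nearest to Mro. In both lists 0 genes passed the interaction, with medians of 0.23 and 0.31 log2. As 1.87% of all genes passed, lists of 11 and 7 genes are likely to hold none. The T and NK cell list had an interaction median of -0.69. Cd3g, a chain of the T cell receptor complex, passed at -0.69 ± 0.19 (limma, adjusted p = 0.0452), where 0.352% of all genes passed in this direction. Its call was lost without any 1 of 22 arrays and without the 6 arrays high in muscle or fat genes (adjusted p = 0.0784, interaction -0.74). Alveolar type 1 and endothelial markers fell for all 7 measured genes of each list, and alveolar type 2 markers rose for 6 of 9 and fell for 1. Heart muscle markers had an interaction median of -1.69 with 0 of 8 passing, and their mean reached 4.42 log2 on LCR sham 0442 and 4.09 on the highest HCR smoke array. The part of these cell types in the values of the 10 genes was not tested.

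Relatives of the 10 genes were drawn from 8 family lists of 94 genes, of which 71 were measured. None of the 71 passed the interaction (limma), against 1.87% of all genes, and the lowest adjusted p was 0.0622. An unadjusted p under 0.05 was found for 14 of them, 19.7%, near the 18.7% of all genes. On the average smoke difference 18 rose and 20 fell, or 25.4% and 28.2%, against 27.4% and 35.8% of all genes, and the counts of single families below can be read against these shares. Among the amino acid transporters of the SLC7 and SLC3 families, 6 of 13 rose and 3 fell. Slc7a11, the cystine importer, rose by 2.40 ± 0.30 log2 (adjusted p = 2.31e-08), the arginine importer Slc7a1 by 0.80 ± 0.07 and the neutral amino acid transporter Slc7a5 by 0.77 ± 0.10. The smoke difference of Slc7a11 was 2.44 ± 0.43 in LCR and 2.36 ± 0.43 in HCR rats. Of 4 measured organic cation transporters the carnitine transporter Slc22a5 changed, at -0.45 ± 0.04. The BK channel pore Kcnma1 fell by 0.40 on the log2 scale (SE 0.17, adjusted p = 0.0468), a call lost under 6 of 9 other settings and without any 1 of 23 arrays.

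Among other phosphoinositide 3-kinase subunits 7 of 10 fell and none rose on average (35.8% and 27.4% of all genes). They included the regulatory subunits Pik3r2 (-0.26 ± 0.03) and Pik3r6 (-0.32 ± 0.05) and the class II relative Pik3c2g (-0.16 ± 0.03). Pik3r2 differed by -0.29 in LCR and -0.22 in HCR rats, close to each other where Pik3c2b had opposite signs, although the difference between these genes was not tested. In the progestin and adipoQ receptor family 2 of 7 rose and 2 fell, among them Paqr5 (0.20 ± 0.05) and Paqr6 (-0.58 ± 0.06). Of 16 other keratins 5 rose and 2 fell, with Krt17 at 0.24 ± 0.05 and Krt10 at -0.39 ± 0.04. The C-type lectins gave 3 rises and 3 falls in 13, with the fungal-glucan receptor Clec7a at 0.31 ± 0.07 and Clec1a at -0.63 ± 0.07. The mab-21-like and maestro families gave 2 rises in 5, Mroh4 (0.09 ± 0.02) and Mroh7 (0.08 ± 0.03).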

How the data were processed

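Lung RNA of 38 rats was hybridised to Affymetrix Rat Genome 230 2.0 arrays, per the labels' protocols. The authors deposited a table of linear intensity values for 31099 probe sets, from 2.09 to 11560, and the software behind them is not stated in the labels. They were analysed as log2(intensity + 16) without further normalization. Of the probe sets, 20826 had 1 gene symbol, 436 several, 9780 none and 57 were controls, and 20758 of the 20826 had a gene ID in the RefSeq table. The probe set with the highest mean stood for each of 14217 genes, 4525 of which had more than 1. Correlations between arrays over genes lay between 0.958 and 0.997. Groups came from the labels, which describe separate animals, and because the numbers of the arrays fall in a separate range for each group, an effect of that order cannot be told apart from group.

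Group means of all arrays were fitted with limma 3.58.1 in R 4.3.3 (lmFit, eBayes, two-sided, 34 residual degrees of freedom), with Benjamini-Hochberg adjustment over 14217 genes at a threshold of 0.05. Deviations from group means were correlated in Python 3.11.15 (NumPy 2.4.6, pandas 2.3.3, SciPy 1.17.1), with 100000 two-sided permutations of arrays within groups. Figures used matplotlib 3.10.9. The fit and the correlation were tested on simulated data. Promoters and positions are from RefSeq on GRCr8, which may differ from the build behind the array's design.

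The 10 genes and all lists were chosen with earlier results of these data known. Named genes were the 10, their 2 nearest genes by r, and up to 3 genes of each list by p for the interaction and for the average smoke difference. Alternatives were a pseudocount of 1, median-centred arrays, quantile normalization, a filter on genes of low mean, the mean of probe sets, a trended robust variance, array weights, the interquartile range or the Actb difference as a covariate, the 6 arrays left out, and each array left out in turn. The line difference weighted by group size was added after the data were seen.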

Additional observations from a re-analysis of the deposited data

Results flagged for a closer look

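On HCR sham 0433 the alveolar macrophage list mean was 0.37 log2 relative to all arrays, with the other 6 HCR sham arrays between -0.46 and -0.14, a gap larger than Dixon's test allows for 7 samples. It was the single such value among 22 sham groups examined (10 genes and this list in each line), and about 1 in 20 groups passes by chance. Genes outside the 10 also passed the test of the line by smoke interaction (limma, adjusted over all genes), as 1.87% of all genes did in either direction. Those named here were met among the genes nearest to a member and in the marker lists. Vamp8 had an interaction of 0.24 log2 (adjusted p = 0.0271), Gtf3a of 0.54 (adjusted p = 0.0234), Mrc1 of 0.62 (adjusted p = 0.0361) and Pparg of 0.48 (adjusted p = 0.0426), all with a larger smoke minus sham difference in LCR than in HCR rats. Cd3g had an interaction of -0.69 log2 (adjusted p = 0.0452). All of these calls were lost without the 6 arrays high in muscle or fat genes (limma, adjusted p from 0.0514 for Vamp8 to 0.170 for Pparg). The interactions were then 0.24 log2 for Vamp8, 0.55 for Gtf3a, 0.57 for Mrc1, 0.41 for Pparg and -0.74 for Cd3g. Mrc1 also lost its call without any 1 of 13 arrays, and Pparg and Cd3g without any 1 of 22.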

How the results depend on the processing

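All 10 genes kept the sign of their interaction in each alternative and with each array left out. Its size moved by more than the spread between arrays with a pseudocount of 1 for Mro (1.68), Mab21l3 (1.09) and Pik3c2b (-1.04), and with the mean of probe sets for Pik3c2b (-0.41). The average smoke difference of Kcnmb4 turned to 0.070 with the interquartile range as a covariate, and those of the basal cell marker Krt5 to -0.064 (0.14 without the covariate) and the neuroendocrine marker Syp to -0.031 (0.20 without it). The number of the 10 that passed the average smoke difference was 9, 8 to 9 with an array left out and 6 to 9 otherwise, and by the equally weighted line difference, which is not independent of the choice, it was 3, 2 to 3 with an array left out, and 1 with the filter on genes of low mean, which removes Mro, Mab21l3 and Pik3c2b. By the line difference weighted by group size it was 1, with 1 to 2 with an array left out, 3 with array weights, 2 with the Actb covariate and 0 with the filter on low genes. Sign changes of that difference were all among values that did not pass. Without the 6 arrays Chodl turned to -0.0047 and Plet1 to 0.041, and with the interquartile range as a covariate Slc7a7 turned to -0.013 and Paqr4 to -0.0037. With an array left out Chodl ran from -0.0058 to 0.082 and Plet1 from -0.044 to 0.015. The 266 genes that passed the interaction became 552 with median-centred arrays, 1537 with array weights, 629 with the Actb covariate and 58 without the 6 arrays. They numbered 81 to 768 with an array left out, with 81, 107 and 129 without HCR sham 0434, 0436 and 0435, 768 and 518 without HCR sham 0432 and 0439, 103, 114 and 152 without LCR sham 0445, 0441 and 0442, 175 and 404 without HCR smoke 0419 and 0412, and 170 and 417 without LCR smoke 0429 and 0420. The cause was not tested. The average smoke difference passed for 8975 genes, and for 5473 with the interquartile range covariate, the equally weighted line difference for 853, and 1328 with array weights, and the weighted one for 901, and 1850 with array weights. No paired analysis was possible because array numbers are not shared between groups.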

Other observations

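The arrays HCR sham 0434, 0435 and 0436 held the 3 highest values of Kcnmb4, Paqr4 and Mro in their group. The interaction count was lower without any 1 of these arrays, at 81, 129 and 107 genes against 266 with all arrays. It was also lower without LCR sham 0445 (103) or LCR sham 0441 (114), so a lower count does not mark out the HCR sham arrays. Kcnmb4 kept an interaction of at least 0.78 log2 without any 1 array, which does not test the 3 arrays together. HCR sham 0434, 0435 and 0436 carry consecutive numbers within the same group, and no label sets them apart from the other 4 HCR sham arrays.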
